A study of Danio rerio with 20 samples.

Results

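The 4 libraries of the group named ERM were compared with the 16 libraries of zebrafish larvae exposed to a drug, out of 20 libraries in all. The 4 drug groups, of 4 libraries each, were larvae kept in citalopram (10 µg/L or 1000 µg/L) or in ifosfamide (1 µg/L or 100 µg/L). Citalopram is a selective serotonin reuptake inhibitor, and ifosfamide is an alkylating anticancer drug that is activated by cytochrome P450 enzymes. The labels do not spell out ERM and give the group a concentration of 1 µg/L without saying of what. Because the study's design names ERM ahead of the drug groups and ties no drug to it, ERM was taken as the group without either drug. If that reading is wrong, every difference given here is one between 2 kinds of exposure. Each treatment had 5 beakers, of which 4 gave a library. The labels give larvae as the tissue, with no strain, age or length of exposure, and do not say whether the larvae of a beaker were pooled. All 20 libraries were read as whole larvae of the same species with no genetic alteration stated.

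A zebrafish larva expresses the genes of all its tissues at once. Its RNA is rich in transcripts for fast muscle contraction, protein synthesis, mitochondrial respiration, pancreatic digestion and skin. A gene active in a small tissue is seen at a low level in such libraries, and in whole larvae fewer cells of a type and less RNA per cell cannot be told apart. Cells break down intracellular proteins with the proteasome, and an immune form of it carries exchanged catalytic subunits that are induced by interferon. RNA polymerases I, II and III make ribosomal, messenger and small structural RNAs.

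The deposited values are FPKM, fragments per kilobase of gene scaled by 1 factor per library, so that levels of different genes can be set side by side per length. Recovered reads ranged from 12049087 to 13897657 in the ERM libraries and from 10699832 to 17311011 over all 20. The library size implied by the FPKM of a single read was 0.938 to 1.06 times the recovered reads in ERM and 0.858 to 1.16 times in the drug libraries, except 0.638 and 1.19 in libraries C and D of citalopram 1000 µg/L, and a ratio under 1 raises FPKM relative to reads. The ERM libraries were the most alike of the 5 groups. Over gene models the median SD of log2(FPKM + 1) was 0.197 within ERM, 0.219 and 0.231 within the ifosfamide groups, 0.251 at citalopram 10 µg/L and 0.407 at citalopram 1000 µg/L. Library C of citalopram 1000 µg/L stood apart, with 25952 gene models above 0 against 28913 to 30110 elsewhere and a fall of signal with gene length (slope -0.15 on the log2 scale per doubling). Library D of the same dose deviated next most from its group (SD 0.65, against 0.865 for library C and at most 0.5 elsewhere). Defining genes of larval tissues were present in every ERM library. Fixed lists of skeletal muscle, exocrine pancreas, epidermis, lens and liver genes held 9.28%, 4.3%, 1.97%, 1.6% and 1.41% of the summed FPKM of ERM, and 69 of 74 muscle, 26 of 32 pancreas and 49 of 63 liver models had a mean of at least 1 FPKM there.

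The most abundant transcripts of ERM larvae came from muscle, mitochondria, ribosomes and pancreas. The highest was pvalb1, a calcium buffer of fast muscle, at 12100, 9430, 11400 and 12800 FPKM in libraries A, B, C and E. It was followed by actc1b, a muscle actin, at a mean of 10690 ± 1820 FPKM (SD, n = 4) and by mt-co1, a subunit of cytochrome c oxidase, at 8714 ± 654. Next came mt-co3 (7632 ± 1666), prss1, a trypsin of the exocrine pancreas (6983 ± 520), and mt-co2 (6946 ± 717). The ribosomal stalk protein rplp0 (5312 ± 647), the mitochondrial ADP/ATP carrier slc25a5 (4831 ± 611), the muscle creatine kinase ckmb (4416 ± 409) and the ribosomal protein rps2 (3314 ± 294) completed the first 10. The first 10 held 13.8% ± 0.388 (SD, n = 4) of the summed FPKM, the first 30 held 24.6% and the first 100 held 43.5%. Of the 30, 10 were cytosolic ribosomal proteins, 5 were skeletal muscle genes of the fixed list, 4 were encoded by mitochondrial DNA and 3 were pancreatic proteases.

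**Figure D1:**
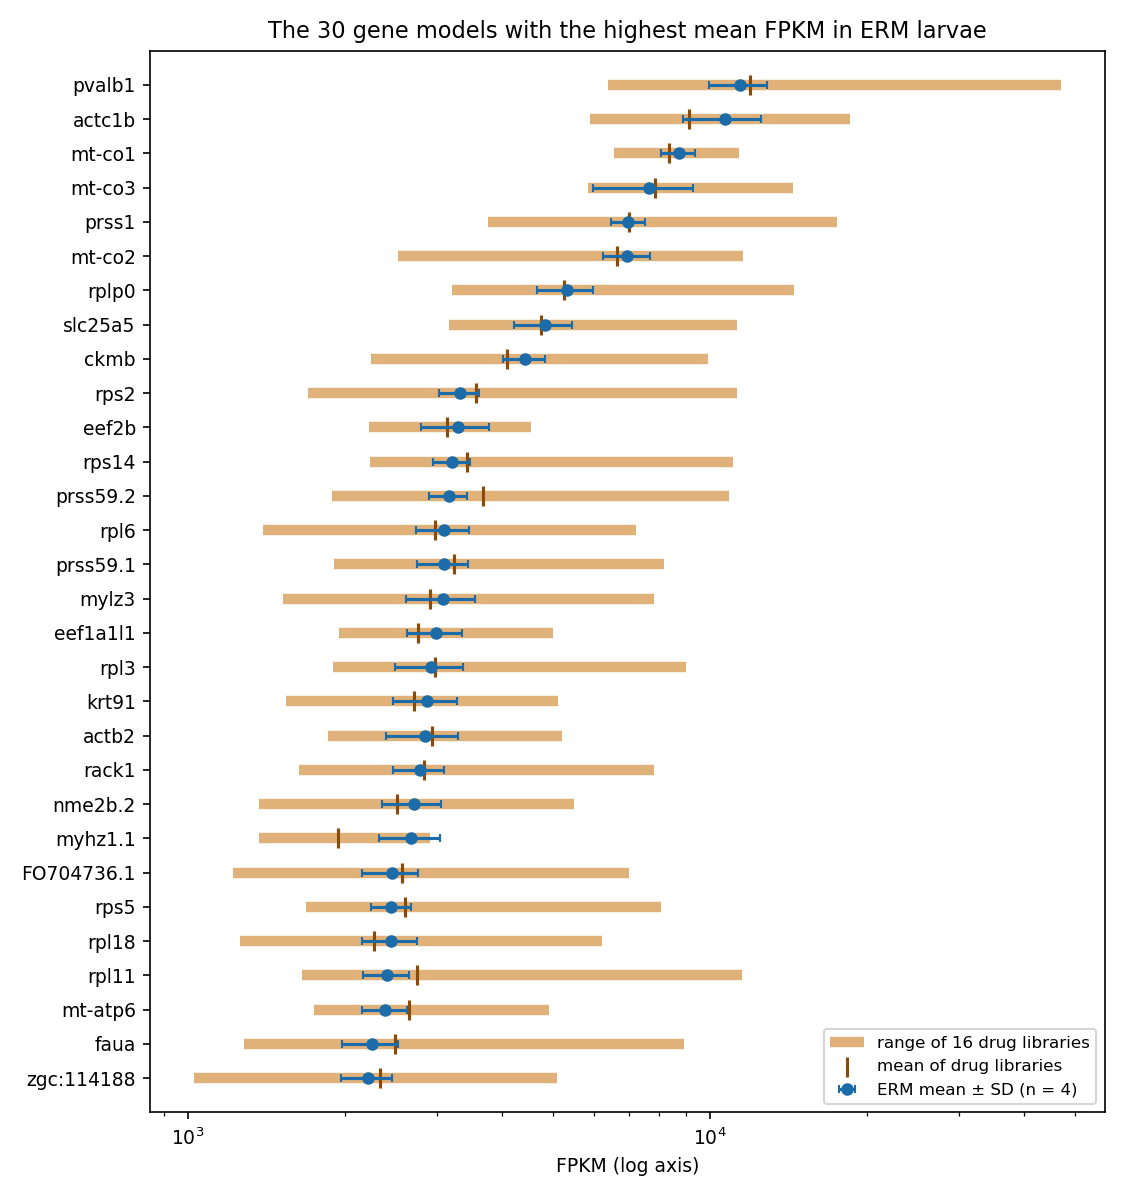
Level of the 30 gene models with the highest mean FPKM in ERM larvae, on a log axis in FPKM. Blue points and bars are the ERM mean and SD over 4 libraries, the brown tick is the mean of the drug libraries and the tan bar is the range of the 16 drug libraries. pvalb1 leads at 11420 FPKM, and the ERM mean lies inside the drug range in each row.

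The levels of these transcripts in ERM mostly lay within those of the drug-exposed larvae. For 28 of the 30, every ERM library lay inside the range of the 16 drug libraries, and for 27 of the 30 the highest of all 20 libraries was library C of citalopram 1000 µg/L. Per recovered read, a setting chosen after seeing the data, that library was the highest for 18 of the 30, and ERM again lay inside the drug range for 28. The drug libraries gave the first 30 a share between 21.9% and 31.1% of summed FPKM, and the highest was 27.3% without that library. The difference between ERM and the mean of the drug groups on the log2(FPKM + 1) scale ran from -0.11 to 0.49, and 0 of the 30 passed the threshold in limma (1 at an unadjusted p under 0.05). That gene was myhz1.1, a fast myosin heavy chain, at 2710, 2170, 2910 and 2940 FPKM in ERM and at a mean of 1937 in the drug groups, with ranges that overlapped. Ranking by recovered reads, which favours long genes, kept 18 of the 30, with actc1b, eef1a1l1 and myhz1.1 in front. In ERM 87 models had a mean of at least 1000 FPKM, 527 had at least 100 and 6711 of 38718 had no read in any ERM library.

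Across all genes the contrast compared ERM with the average of the 4 drug groups, where a difference may come from 1 group and opposite groups can cancel. It was fitted as ERM minus the equal-weight mean of the 4 drug groups with limma on log2(FPKM + 1), over the 19723 gene models with a mean of at least 1 FPKM, of which 15822 were protein coding. With Benjamini-Hochberg adjusted p under 0.05 as the threshold, 5 models passed, which is 0.0254% of those tested. All 5 were lower in ERM, and 0 were higher (limma smallest adjusted p 0.128). At an unadjusted p under 0.05 there were 402 higher and 309 lower models, 2.04% and 1.57% of those tested. The voom method on recovered reads also called 5, of which 4 were the same models. Of the 5, 4 lie within 316 kb on chromosome 12 and the other is a model without annotation on a contig. Among the 4 drug groups themselves, 0 models passed the same threshold in limma's F-test (1299 at an unadjusted p under 0.05, and 210 past the threshold without library D of citalopram 1000 µg/L). The count of 5 fell to 0 when ERM library A or E was left out and to 3 without ERM library B. Array weights of limma, which lower the weight of uneven libraries and raise that of even ones, raised it to 206. Of these, 99 were higher and 107 lower, all 5 included, or 1.04% of those tested. The weights ran from 0.124 for library C of citalopram 1000 µg/L to 5.18 for library C of ifosfamide 1 µg/L. Without libraries C and D of citalopram 1000 µg/L, a setting chosen after seeing the data, 2 passed, si:ch211-226h7.5 at -2.77 and the contig model at -1.57 (limma adjusted p = 0.00983 for both).

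**Figure D2:**
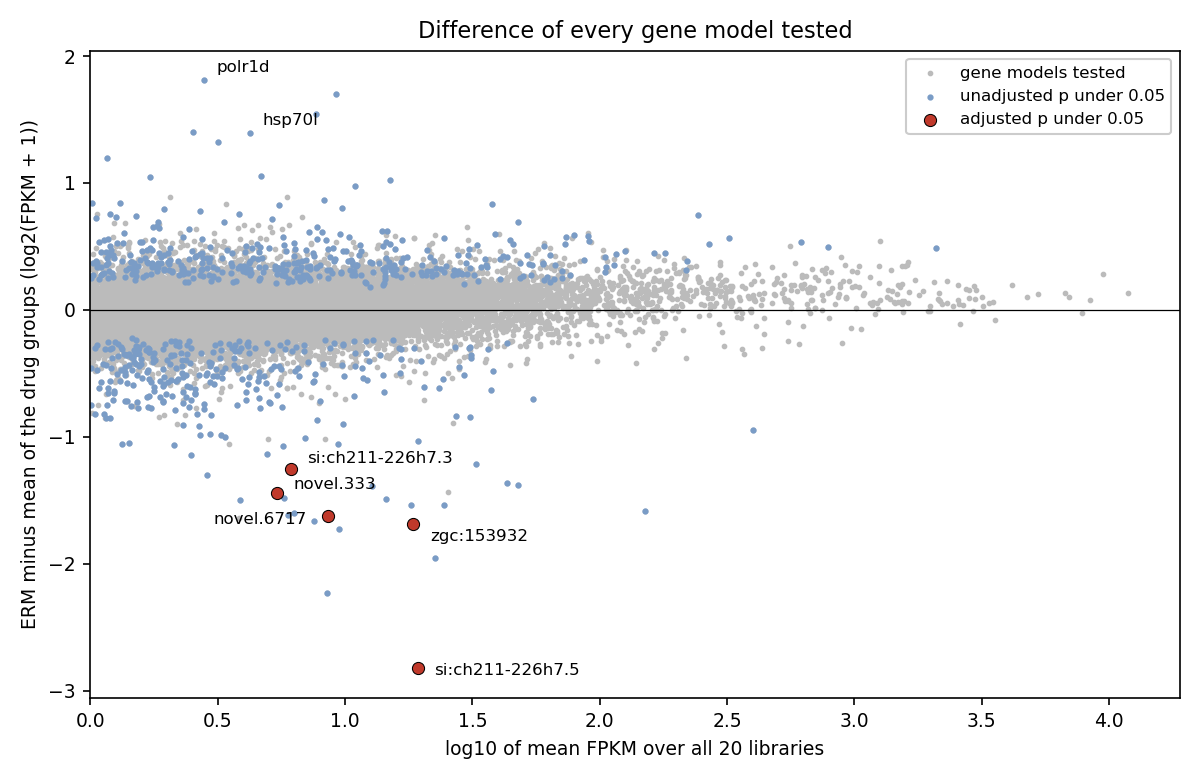
Difference between ERM and the mean of the 4 drug groups for each of the 19723 gene models tested, on the log2(FPKM + 1) scale, against log10 of the mean FPKM over 20 libraries. Blue points had an unadjusted p under 0.05, red points an adjusted p under 0.05 in limma. The red points all lie below 0, the lowest being si:ch211-226h7.5 at -2.82. Models without a gene name carry the name used in the authors' table.

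The model with the smallest p carried no gene symbol, no Ensembl identifier and no description. It lies on contig KN150521.1 of GRCz11, at 15002 to 20896 on the minus strand. ERM libraries A, B, C and E had 2.48, 2.68, 2.34 and 2.38 FPKM. The 16 drug libraries ran from 4.58 to 15.2 FPKM with a median of 9.32, so the groups did not overlap and the ERM values were nearly equal to each other. The group means were 11.5 ± 3.52 at citalopram 10 µg/L, 9.27 ± 2.94 at citalopram 1000 µg/L, 9.55 ± 4.48 with ifosfamide 1 µg/L and 10.16 ± 2.42 with ifosfamide 100 µg/L (SD, n = 4 each). On the log2(FPKM + 1) scale ERM was lower by a difference of -1.62 (SE 0.22, limma adjusted p = 0.00472). The limma adjusted p was 0.0828 without ERM library A and 0.0866 without ERM library E, with differences of -1.63 and -1.61.

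The other 4 models past the threshold lie on the minus strand of chromosome 12 of GRCz11, inside a stretch from 46063858 to 46379704. The largest change was that of si:ch211-226h7.5 (ENSDARG00000074150), a protein-coding gene at 46231498 to 46252062. Its level was 1.05, 1.92, 8.06 and 0.854 FPKM in ERM libraries A, B, C and E, from 44, 92, 418 and 39 recovered reads. The drug libraries ran from 8.56 to 44.1 FPKM with a median of 20.2. Library C was the highest ERM library by a wide margin and still lay below the lowest drug library, so the groups did not overlap. The difference was -2.82 (SE 0.38, limma adjusted p = 0.00472). Set against ERM, each drug group was higher by a similar amount, 2.82 and 2.79 at citalopram 10 and 1000 µg/L and 2.74 and 2.95 at ifosfamide 1 and 100 µg/L (SE 0.48 each). These 4 values share the ERM libraries. The limma adjusted p was 0.0839 without ERM library A, 0.0866 without E and 0.000478 without C.

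The second, zgc:153932 (ENSDARG00000052779), is a protein-coding gene at 46120836 to 46145909. ERM libraries had 4.73, 6.1, 11.09 and 3.06 FPKM, and the drug libraries ran from 12.1 to 38.1 with a median of 19.9. Library C of ERM was again the highest and came close to the lowest drug library, library A of ifosfamide 1 µg/L, without reaching it. The difference was -1.69 (SE 0.26, limma adjusted p = 0.0205), and the adjusted p rose to 0.252 without ERM library A, 0.0946 without B and 0.343 without E.

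The third, si:ch211-226h7.3 (ENSDARG00000109626), lies at 46283843 to 46315898 and is protein coding. Its ERM values were 1.71, 1.47, 5.22 and 1.75 FPKM, against 4.75 to 10.8 in the drug libraries. Here ERM library C overlapped the low end of the drug libraries while the other 3 stayed far below it. The difference was -1.26 (SE 0.21, limma adjusted p = 0.0468), and this call held under 11 of 40 alternative settings. The fourth is a model without gene symbol or Ensembl identifier that spans the whole stretch and all the annotated genes in it, so the reads of those genes and of this spanning model may have been divided between them. The authors' description field gives it similarity to rat uromodulin, a glycoprotein best known from the kidney of mammals, and a transposase domain. ERM had 1.01, 1.7, 3.82 and 0.695 FPKM and the drug libraries 4.61 to 11.5, without overlap (difference -1.45, SE 0.24, limma adjusted p = 0.0307, past the threshold under 20 of 39 alternatives).

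**Figure D3:**
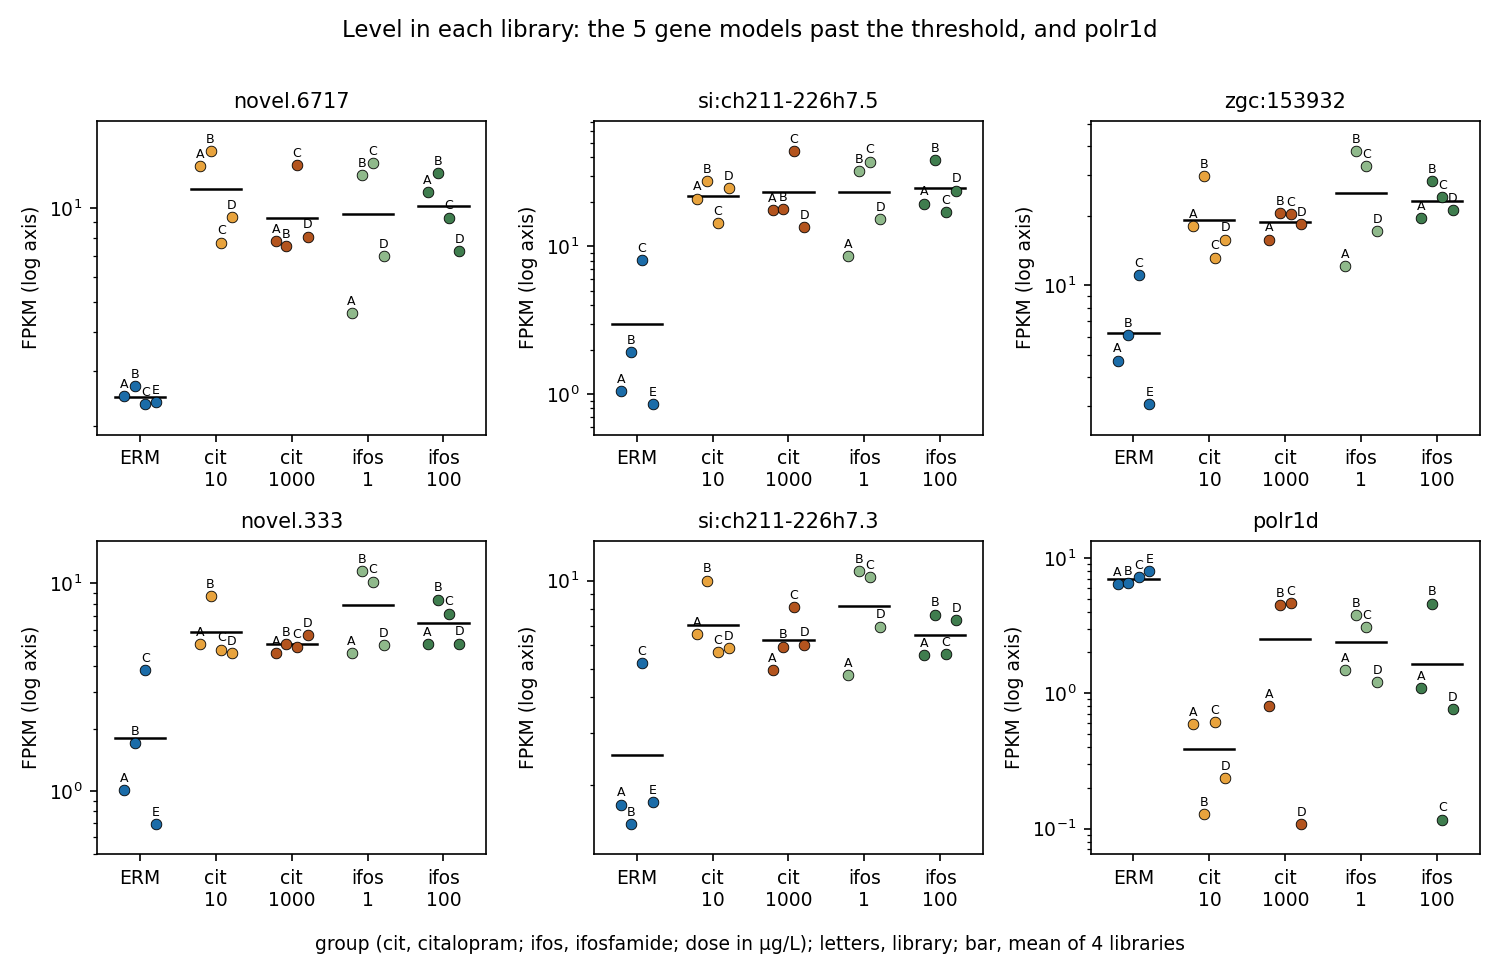
Level of the 5 gene models past the threshold and of polr1d in each library, in FPKM on log axes, by group (cit, citalopram and ifos, ifosfamide, with the dose in µg/L). Points are libraries with their letter and bars are means of 4. ERM libraries lie below every drug library for 4 of the 5, ERM library C reaches into the drug range for si:ch211-226h7.3, and for polr1d the ERM libraries lie above all others.

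The remaining tested gene models of the same stretch leaned the same way, none past the threshold. Of 10 models inside the stretch, 7 had a mean of at least 1 FPKM and were tested. The stretch was drawn around the models past the threshold, so these were lower in ERM by choice. The other tested models also had a lower mean in ERM, and the spanning model overlaps each of them. The pseudogene AL954655.2 had 1.3, 1.65, 1.5 and 0.56 FPKM in ERM and at least 2.05 in every drug library (difference -0.82, SE 0.17, limma adjusted p = 0.179). The copy of zgc:153932 annotated separately as ENSDARG00000113315, at 46098784 to 46112892, had 0.771, 1.01, 2.13 and 0.412 FPKM in ERM against a drug mean of 3.11 (-0.98, limma adjusted p = 0.321). An unannotated plus-strand model at 46070261 to 46095007 had a difference of -1.60 (limma adjusted p = 0.548). Of the models in the 100 kb on each side, 2 were tested, both unannotated and both to the left of the stretch. They had differences of 0.34 and 0.03 with SE of 0.43 and 0.27. To the right no model reached a mean of 1 FPKM, so none was tested there. The genes here carry the same clone name or symbol and may be similar in sequence, in which case reads could be assigned to a neighbouring copy. No sequence of them was at hand to compare.

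**Figure D4:**
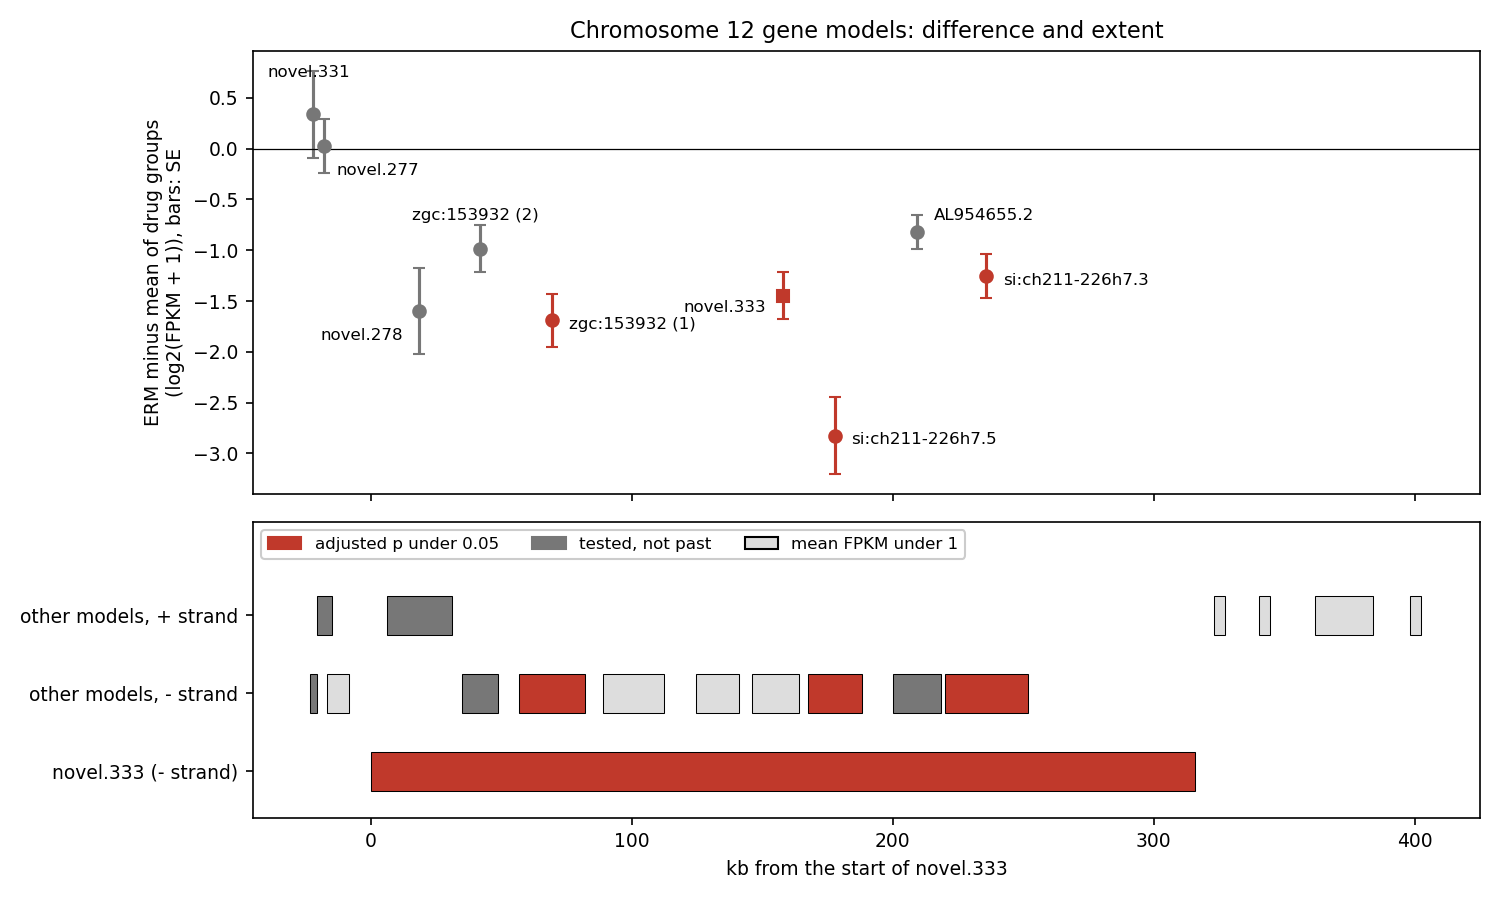
Gene models around the chromosome 12 stretch, by distance in kb from the start of the spanning model. The upper panel gives the difference between ERM and the mean of the drug groups (log2(FPKM + 1), bars are SE) and the lower panel the extent and strand of each model. The 7 tested models of the stretch, the spanning one included, lie between -2.82 and -0.82, and the 2 tested models to the left of it at 0.34 and 0.03.

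Beyond the threshold, the groups could be compared by whether the libraries overlapped. The 4 ERM libraries lay all above or all below the 16 drug libraries in 18 models, 0.0913% of those tested, 7 above and 11 below. Those below were, besides the models just given, psmb9a, rab25a and 4 models with clone names. Of these, psmb9a and si:ch211-183d5.2 met the filter through the drug libraries alone, so they had to have a lower mean in ERM. Under the 3 other scalings the count of models without overlap was 13 to 18. The models given next were chosen for this lack of overlap, after their values were seen. Among them, si:dkey-247k7.2 on chromosome 16 was abundant, at 42.3, 64.1, 89 and 32.5 FPKM in ERM against 90.5 to 463 in drug libraries (difference -1.58, SE 0.30, limma adjusted p = 0.12). A chromosome 12 gene far from the stretch, si:dkey-239b22.1, had 3.6, 6.3, 9.25 and 2.68 FPKM in ERM against 9.70 to 31.7 in drug libraries (-1.49, SE 0.28, limma adjusted p = 0.0879). Those above were polr1d, ptpn2a, iqce, mboat4, si:ch73-221f6.1, si:ch73-299h12.9 and an unannotated model of chromosome 16. The order of libraries was then counted in models chosen by small p, lack of overlap or place in the chromosome 12 stretch. Models of the stretch overlap and may share reads, so they are not separate observations. No such count was made over all models tested. Over the 23 models lower in ERM that were looked at library by library, library C was the highest ERM library in 19 and library E the lowest in 11, and among the drug libraries the highest was ifosfamide 1 µg/L library B in 10 and citalopram 1000 µg/L library C in 6.

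The gene with the largest positive difference among the symbol-bearing genes named for that direction was polr1d, which encodes a subunit shared by RNA polymerases I and III (ENSDARG00000037570, chromosome 14, 9077314 to 9085349). Its level was 6.37, 6.5, 7.18 and 8.02 FPKM in ERM, from 48, 56, 67 and 66 recovered reads. The drug libraries ran from 0.108 to 4.65 FPKM with a median of 0.942, down to 1 read in 3 of them. All 4 ERM libraries lay above every drug library, while the drug libraries were scattered over a wide range, with a mean of 0.39 ± 0.244 at citalopram 10 µg/L and 2.5 ± 2.39 at citalopram 1000 µg/L. The difference of 1.81 (95% interval 1.03 to 2.59) did not pass the threshold in limma (adjusted p = 0.179). It passed under only 3 of 39 alternative settings. These were array weights (limma adjusted p = 0.00113), leaving out the citalopram 1000 µg/L group (0.0388) and leaving out library B of ifosfamide 100 µg/L (0.0466). Of 24 tested subunits of the 3 RNA polymerases, 0 passed in limma. With higher levels in ERM, 2 had an unadjusted p under 0.05 (polr1d and polr3gla), against 2.04% of all models tested. The count includes polr1d itself, which was named by its small p. The median difference of the subunits was 0.10, against 0.0049 over all models tested.

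Other genes with a symbol and higher levels in ERM, none past the threshold, included 4 of muscle and heart. The fast myosin heavy chains myhz2 and myhz1.3 had 1070, 936, 954 and 1090 FPKM and 431, 399, 412 and 440 FPKM in ERM. Their drug libraries ran from 457 to 999 and from 129 to 438, with the lowest group means at citalopram 1000 µg/L (493 and 177). ERM and drug libraries overlapped for both, and the differences were 0.50 (SE 0.12) and 0.57 (SE 0.14), with limma adjusted p of 0.408 and 0.436. Against single groups, myhz2 differed from ERM by -0.17 at citalopram 10 µg/L, -1.03 at citalopram 1000 µg/L, -0.45 with ifosfamide 1 µg/L and -0.34 with ifosfamide 100 µg/L (drug minus ERM). The slow and cardiac myosin heavy chain myh7 had 14.1, 11, 12.9 and 14.5 FPKM in ERM against 6.32 to 12.4 in the drug libraries (0.47, SE 0.10, limma adjusted p = 0.267). The cardiac myosin-binding protein mybpc3 had 22.2, 19.4, 18.3 and 21.8 FPKM against 11.15 to 22.3 (0.38, SE 0.10, limma adjusted p = 0.565). For myh7, 3 of the 4 ERM libraries lay above every drug library, and for mybpc3 all 4 lay inside the drug range.

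The fixed muscle and heart lists, which include the myosin genes and mybpc3 just given, leaned the same way. Of 68 tested skeletal muscle genes, 62 had a higher level in ERM, 15 of them (and 0 lower ones) at an unadjusted p under 0.05, and 0 passed in limma. Of all 19723 models tested, 10116 were higher, and 2.04% were higher at an unadjusted p under 0.05. The median difference was 0.25, and its value was 0.18 to 0.19 under the 3 other scalings. By group the median difference of these genes (drug minus ERM) was -0.04 at citalopram 10 µg/L, -0.25 at citalopram 1000 µg/L, -0.41 with ifosfamide 1 µg/L and -0.26 with ifosfamide 100 µg/L. Of 20 tested heart genes, 17 were higher in ERM, 8 of them at an unadjusted p under 0.05, with a median of 0.31, and 0 passed. With array weights 12 muscle and 4 heart genes passed, all higher in ERM, against 1.04% of all models tested in either direction. Without libraries C and D of citalopram 1000 µg/L, the medians were 0.26 and 0.33.

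The hsp70 copies were high in ERM libraries B and E and also in single drug libraries. The inducible chaperone hsp70l had 3.19, 12.6, 5.12 and 16.4 FPKM in ERM libraries A, B, C and E, and 0.699 to 9.89 in the drug libraries (difference 1.39, SE 0.38, limma adjusted p = 0.564). Its relative hsp70.3 had 3.87, 27.7, 10.15 and 38.7 FPKM in ERM against 0.949 to 39.4 in drug libraries (1.70, SE 0.54, limma adjusted p = 0.843). Libraries B and E were the high ones for both. For hsp70l they lay above every drug library and libraries A and C lay among them, for hsp70.3 all 4 lay within the drug range. Library D of citalopram 10 µg/L had 39.4 FPKM of hsp70.3 and 9.89 of hsp70l, library B of citalopram 1000 µg/L had 18.7 and 8.87, and the near-identical hsp70 copies may share reads. Of 29 tested heat shock and chaperone genes 4 had an unadjusted p under 0.05, all of the hsp70 family and all higher in ERM. None passed in limma, and the list median was 0.06. Among all models tested 2.04% were higher in ERM at an unadjusted p under 0.05. Further genes outside the lists were igfbp1a, a binding protein of insulin-like growth factors, diabloa, a binder of inhibitors of apoptosis, and zpr1, a zinc finger protein. They had ERM means of 124 ± 29.7, 19.5 ± 10.8 and 3 ± 0.84 FPKM against drug means of 81.7, 8.84 and 1.54 (differences 0.58, 0.98 and 0.66, limma adjusted p = 0.549, 0.436 and 0.408). The phosphatase gene ptpn2a had 6.67, 6.09, 6.53 and 7.92 FPKM in ERM and no more than 6.05 in any drug library (0.49, SE 0.12, limma adjusted p = 0.408), so that its groups did not overlap.

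Immune proteasome and macrophage genes leaned the other way, again with none past the threshold. The catalytic subunit psmb9a of the immune proteasome had 0.307, 0.336, 0.434 and 0.422 FPKM in ERM, from 4, 5, 7 and 6 recovered reads, against 0.624 to 2.37 in the drug libraries. Every ERM library lay below every drug library, at low read numbers. With an ERM mean under 1 FPKM, psmb9a met the filter of a mean of 1 FPKM through its drug libraries alone and so had to be lower in ERM, which makes its difference a description. The same holds for psmb8a and for mxc, krt93, sult5a1 and pomca described below, and for 654 of the 19723 models tested. It also holds for si:ch211-183d5.2, a clone-named model without overlap. A further 92, per1a among them, met the filter through ERM alone and so had to be higher in ERM. The difference of psmb9a was -0.75 (SE 0.17, limma adjusted p = 0.321). The related subunit psmb8a had an ERM mean of 0.535 ± 0.243 FPKM (SD, n = 4) and a drug mean of 1.61, and the activator subunit psme2 had 2.75, 3, 3.39 and 1.95 FPKM against 3.16 to 7.53, where library C of ERM reached into the drug range (-0.62, SE 0.16, limma adjusted p = 0.477). Of 27 tested genes for immune proteasome subunits and antigen presentation, 20 were lower in ERM, 8 of them at an unadjusted p under 0.05. Among all models tested 48.7% were lower, and 1.57% were lower at an unadjusted p under 0.05. The list median was -0.26, with medians of 0.22 to 0.28 above ERM in each drug group. Of the 27, 3 met the filter through the drug libraries alone, psmb9a and psmb8a among them, and 1 through ERM alone. The counts and the median include these members, whose direction the filter had fixed and which are no support for a lean. Of 34 constitutive proteasome genes, 32 were higher in ERM, with a median of 0.11 and 0 at an unadjusted p under 0.05. With array weights psme2 and tapbp.1, a chaperone of antigen loading, passed (tapbp.1 was chosen from that result). So did psmb9a and psmb8a, but the filter had fixed their direction, so their passing is no support.

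The macrophage gene mpeg1.2, which encodes a pore-forming protein, had 5.7, 7.52, 18.8 and 5.41 FPKM in ERM against 11.7 to 60.8 in drug libraries. Only library C of ERM lay inside the drug range. The difference was -1.54 (SE 0.35, limma adjusted p = 0.298). The gene ENSDARG00000055504, which the reference names cd68, a lysosomal protein of macrophages, had 35 ± 6.54 FPKM (SD, n = 4) against a drug mean of 59.5 (-0.70, SE 0.23, limma adjusted p = 0.941). Of 30 tested macrophage and neutrophil markers, 24 were lower in ERM, 4 at an unadjusted p under 0.05, with a median of -0.15. The shares over all models tested were 48.7% lower and 1.57% lower at an unadjusted p under 0.05. Among the 30, 5 met the filter through the drug libraries alone, and so had to be lower, and 0 through ERM alone. The summed share of these markers was 0.0899% to 0.108% of FPKM in ERM against 0.0915% to 0.171% in the drug libraries, and its part in the difference of the immune proteasome genes was not tested. In the interferon response list 15 of 24 were lower, against 48.7% of all models, with a median of -0.04. Among the 24, 3 met the filter through the drug libraries alone and 1 through ERM alone. The transcription factor gene irf1b, here the model ENSDARG00000043249 of 2 with that symbol, had 2.82 ± 0.178 FPKM against 5.66 (-0.73, SE 0.23), and mxc, an antiviral GTPase, had 0.944 ± 0.35 against 2.45 (-0.79, SE 0.22). Their limma adjusted p were 0.786 and 0.66.

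Several skin genes were at low levels in most ERM libraries, while other genes of the same list were higher in ERM. The keratin gene krt96 had 3.14, 7.27, 11.7 and 4.12 FPKM in ERM against 7.7 to 41.9 in drug libraries (-1.54, SE 0.35, limma adjusted p = 0.298). The keratin krt93 had 1.8, 0.191, 0.044 and 0.5 FPKM against 0.0793 to 11.5 (-1.30, SE 0.36), and tgm1l3, a transglutaminase that cross-links proteins, had 6.34, 1.54, 0.523 and 1.75 FPKM against 0.654 to 27.5 (-1.73, SE 0.48). For both, library A was the highest ERM library and library C the lowest, the reverse of the order seen for krt96, and the citalopram 1000 µg/L group had the highest mean (6.82 and 20.2 FPKM). Their limma adjusted p were 0.564 and 0.596. The epidermis list as a whole gave 24 higher and 28 lower of 52 tested, against 48.7% lower over all models, with a median of -0.01. At an unadjusted p under 0.05 there were 3 higher and 5 lower, against 2.04% and 1.57% of all models tested. Of the 52, 3 met the filter through the drug libraries alone, krt93 among them, and so had to be lower. With array weights 3 of the list passed as higher and 3 as lower, against 1.04% of all models tested in either direction. The higher ones were cyt1l (0.97), krt15 (0.74) and krtt1c19e (0.68), and the lower ones krt96 (-1.73), grhl1 (-0.65) and agr1 (-0.45). Apart from krt96, these were named from that result.

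The remaining symbol-bearing genes with lower levels in ERM were of mixed function. The sulfotransferase gene sult5a1 had 0.805, 0.391, 1.7 and 0.45 FPKM against 1.53 to 11.9, with only library C inside the drug range (-1.50, SE 0.35, limma adjusted p = 0.321). The gene rgs2, a brake on G protein signalling, had 4.02, 3.1, 5.55 and 3.68 FPKM against 3.39 to 15.9 (-0.87, SE 0.22, limma adjusted p = 0.477). The genes plekhs1 and vwa10.1 had ERM means of 2.02 ± 2.18 and 1.31 ± 0.57 FPKM against drug means of 6.7 and 3.73 (-1.49 and -0.99, limma adjusted p = 0.436 and 0.477). With array weights 16 of the 20 symbol-bearing genes named by smallest p, 10 in each direction, passed, against 1.04% of all models tested. The 20 were picked by p from the same libraries and contrast, so this count is no separate support for them.

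Among genes of drug handling, the closest to the threshold was ENSDARG00000099702, listed by the authors as CABZ01114318.1 and by the reference as ahrra, a repressor of the aryl hydrocarbon receptor. This receptor switches on cytochrome P450 genes of the first family when it binds foreign aromatic compounds. ENSDARG00000099702 (CABZ01114318.1) had 3.13, 4.78, 2.9 and 2.5 FPKM in ERM against 3.61 to 10.13 in drug libraries, so that ERM library B overlapped them. Its mean was 8.06 ± 1.59 at citalopram 10 µg/L and 4.14 ± 0.465 at ifosfamide 100 µg/L (SD, n = 4), and the difference was -0.67 (SE 0.13, limma adjusted p = 0.12). Without ERM library B, the one that overlapped, the limma adjusted p was 0.039. The gene passed under only 2 of 40 alternative settings. The receptor's best known target cyp1a had 23, 20.2, 22.8 and 20.5 FPKM in ERM, against 34.4 ± 7.21 and 36.5 ± 13.4 at citalopram 10 and 1000 µg/L and 21.5 ± 1.85 and 20.9 ± 3.48 at ifosfamide 1 and 100 µg/L. Its difference from the mean of all drug groups was -0.31 (SE 0.15, limma adjusted p = 0.9996). The bile acid enzyme cyp8b1 had 10.6 ± 0.904 FPKM in ERM against 7.06 (0.56, SE 0.16, limma adjusted p = 0.596). Of 52 tested genes in this list 32 were higher and 20 lower in ERM, and the median of 0.05 turned to -0.01 under 1 of 3 other scalings.

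None of the tested genes tied to the actions of the drugs passed the threshold. The serotonin transporter gene slc6a4a, the target of citalopram, had 5.11, 6.26, 5.07 and 5.72 FPKM in ERM and a drug mean of 5.37, with a difference of 0.10 (95% interval -0.36 to 0.55). The serotonin-making enzyme tph2 and the degrading enzyme mao had 2.21 ± 0.554 and 10.26 ± 0.473 FPKM in ERM against 1.84 and 10.6. The DNA damage response genes mdm2 and cdkn1a had 6.63 ± 0.628 and 4.75 ± 1.34 FPKM against 5.89 and 4.63. Of 33 tested genes of the DNA damage list 18 were higher and 15 lower in ERM, with 0 at an unadjusted p under 0.05. The redox genes prdx1 and hmox1a had 9.21 ± 1.54 and 8.05 ± 3.36 FPKM in ERM against 6.51 and 11.8 (differences 0.47 and -0.41, limma adjusted p = 0.786 and 0.9996). The chaperone hsp90aa1.2 had 21.5 ± 3.83 FPKM against 19.9. The stress hormone precursor pomca, the glucocorticoid receptor nr3c1 and its cochaperone fkbp5 had 0.588 ± 0.426, 2.47 ± 0.243 and 149 ± 44.7 FPKM against 1.45, 2.71 and 126. Genes that follow light, clock or recent activity, per1a, per2, nr1d1, dbpa, fosab and egr1, had ERM means of 1.36, 17.7, 11.5, 3.03, 28.7 and 5.62 FPKM and drug means of 0.956, 18.4, 11.2, 3.53, 23.6 and 5.75. None of these passed in limma. For fosab, ERM library E had 1283 recovered reads, against 383, 334 and 441 in libraries A, B and C. Without library E its difference changed sign, to -0.2997. For egr1, library E had 348 reads, against 175, 177 and 189. Since pomca met the filter through the drug libraries alone and per1a through ERM alone, the filter fixed the direction of both. The gene cyp1b1 had a mean of 0.00117 FPKM over all libraries and was not tested.

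**Figure D5:**
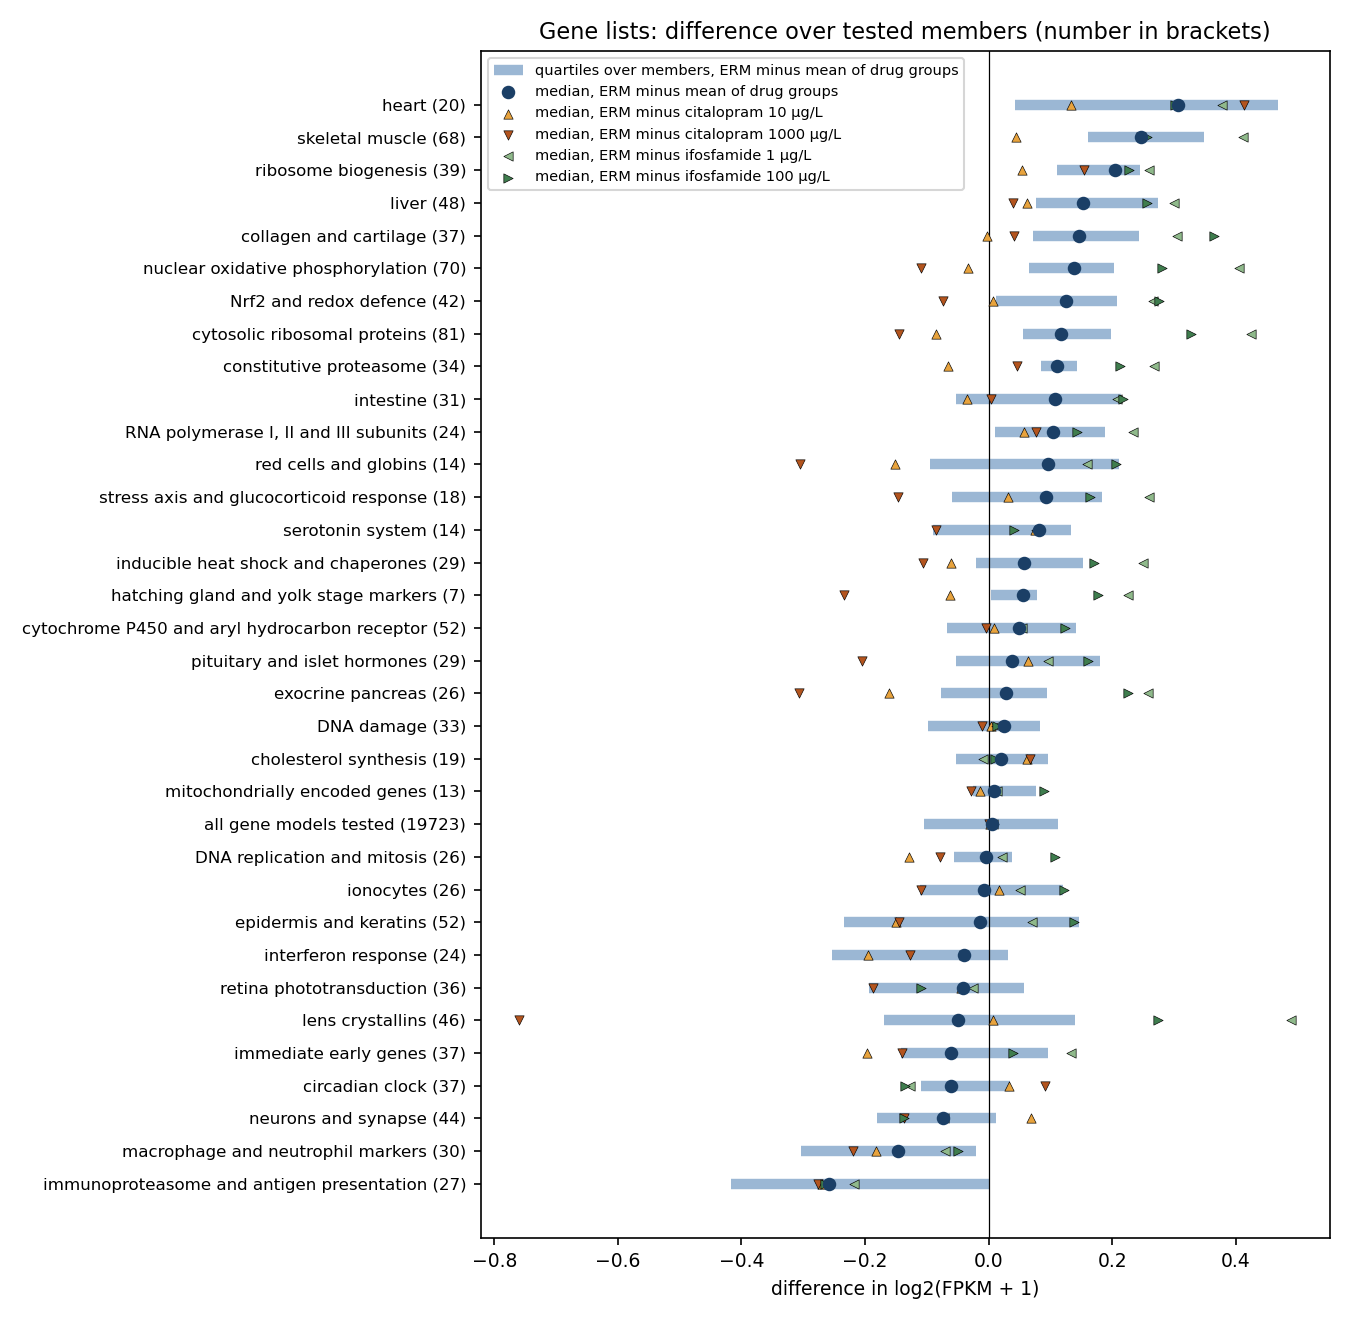
Difference between ERM and the drug groups in 33 fixed gene lists and in all gene models tested, in log2(FPKM + 1). Dark points and bars are the median and quartiles over the tested members for ERM minus the mean of the drug groups, and triangles are medians for ERM minus each drug group. Heart (0.31) and skeletal muscle (0.25) lie at the top and the immune proteasome list (-0.26) at the bottom, and all models lie at 0.0049.

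In the lists for growth and metabolism most members were slightly higher in ERM, with 0 past the threshold in limma in any of the 33 lists. Ribosome biogenesis genes were higher in 36 of 39 (median 0.20), nuclear genes of oxidative phosphorylation in 64 of 70 (0.14), cytosolic ribosomal proteins in 73 of 81 (0.12), Nrf2 and redox genes in 32 of 42 (0.13), collagen and cartilage genes in 31 of 37 (0.15), intestine genes in 21 of 31 (0.11) and liver genes in 48 of 48 (0.15). Over all models tested 10116 of 19723 were higher. The values depended on the scaling. Under 3 other scalings the medians ran from 0.0329 to 0.0647 for ribosomal proteins, 0.0794 to 0.0923 for oxidative phosphorylation, 0.0536 to 0.0612 for the constitutive proteasome, 0.0718 to 0.1109 for Nrf2 and redox genes, 0.0917 to 0.1508 for collagen and cartilage and 0.0944 to 0.116 for liver. These medians mixed unlike groups. As drug minus ERM, ribosomal proteins had medians of -0.42 and -0.33 with ifosfamide 1 and 100 µg/L and of 0.09 and 0.15 with citalopram 10 and 1000 µg/L, and the medians of oxidative phosphorylation genes had the same signs, at -0.40, -0.28, 0.03 and 0.11 in that order. Liver genes had negative medians in each drug group, -0.06 and -0.04 with citalopram and -0.30 and -0.26 with ifosfamide.

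The lists given next had medians from -0.07 to 0.10, and no cutoff set them apart from the lists above. Over all models tested 10116 of 19723 were higher in ERM and 48.7% were lower. Stress axis genes were higher in 11 of 18 (0.09), serotonin genes in 8 of 14 (0.08), red cell genes in 8 of 14 (0.10), hatching gland and yolk stage markers in 5 of 7 (0.06) and pituitary and islet hormones in 18 of 29 (0.04). Exocrine pancreas genes were higher in 16 of 26 (0.03), cholesterol synthesis genes in 11 of 19 (0.02) and mitochondrially encoded genes in 7 of 13 (0.01), and for these lists and the DNA damage list the sign of the median turned under at least 1 other scaling, as it did for hatching gland and hormone genes. Lower in ERM were 32 of 44 neuron genes (-0.07), 25 of 37 clock genes (-0.06), 22 of 37 immediate early genes (-0.06), 26 of 46 lens crystallins (-0.05), 23 of 36 phototransduction genes (-0.04), 15 of 26 ionocyte genes (-0.01) and 14 of 26 DNA replication and mitosis genes (-0.0046). Leaving out each ERM library in turn kept the sign of the median in 21 of the 33 lists, and the 3 other scalings kept it in 26. Without single ERM libraries the medians ran from -0.2156 to 0.0823 for lens, -0.2144 to 0.2066 for phototransduction, -0.193 to 0.0537 for immediate early genes, -0.0478 to 0.0281 for ionocytes, -0.0621 to 0.0459 for DNA replication and -0.0546 to 0.138 for red cells, and 1 or more signs turned likewise for serotonin, pancreas, cholesterol, mitochondrial, epidermis and DNA damage genes. Under the scalings stress axis genes ran from 0.0031 to 0.048. Lens crystallins differed most between drug groups, with medians (drug minus ERM) of 0.76 with citalopram 1000 µg/L and -0.49 with ifosfamide 1 µg/L.

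Some genes varied widely among the ERM libraries themselves, and those given here were chosen for that spread. The lens and cone genes crybb1 and opn1mw1, which encode a crystallin and a green-sensitive opsin, had 1500, 357, 299 and 588 FPKM and 108, 40.9, 149 and 249 FPKM in libraries A, B, C and E. The most variable model of at least 5 FPKM was zgc:92137, at 53.5, 2.65, 28.1 and 85.5 FPKM, with an SD of 2.02 on the log2 scale. Library B was the low one and the drug libraries ran over a like range, from 4.32 to 95.7 FPKM.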

How the data were processed

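Poly(A) RNA of zebrafish larvae was sequenced in 20 strand-specific libraries, 4 beakers in each of 5 groups, per the labels' protocols. The deposited table holds FPKM values made by the authors for 38718 gene models on GRCz11, including models without an Ensembl identifier. Tools listed per the submitters' processing notes were HISAT2, featureCounts, fastp and DESeq2, whose versions and settings are not given in the sources used here. FPKM times gene length gave whole reads for 100% of values within 0.01. These recovered reads numbered 10699832 to 17311011 per library.

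The 19723 models with a mean of at least 1 FPKM over 20 libraries were fitted on log2(FPKM + 1) with limma 3.58.1 in R 4.3.3, using a mean-variance trend, all 5 groups in the model and no batch term (15 residual degrees of freedom). The contrast was ERM minus the equal-weight mean of the 4 drug groups. P-values were adjusted by the Benjamini-Hochberg method over all models tested, with a threshold of 0.05. They rest on the spread between libraries of different beakers, and whether a library pooled the larvae of its beaker is not stated. Intervals are 95% intervals of the fit. The log2(FPKM + 1) scale understates changes of low genes. The contrast was also run on simulated data with independent normal noise of equal spread in all libraries. Such data cannot show how uneven libraries or overlapping models affect the count. Figures were drawn with matplotlib 3.10.9 in Python 3.11.15.

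The text names, in each direction, the 10 models of smallest p with a gene symbol, up to 5 past the threshold without one, the 30 most abundant in ERM, the 2 of smallest p in each list it describes gene by gene, and genes linked to the drugs. The members, gene lists and named genes were chosen with earlier results of these data known. Alternatives changed the pseudocount, filter, scaling, weights, model and libraries. The labels state no link between library letters of different groups, so no pairing was used. Over 12 pairs of an ERM and a drug library with the same letter the correlation of deviations ran from -0.435 to 0.389, with 5 over 0.1. No pairs with unlike letters were set beside them, so these values do not settle whether the letters were linked. One gene of the named set is not reported here.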

Additional observations from a re-analysis of the deposited data

Results flagged for a closer look

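Within groups of 4 libraries, 38 gene models named in the text were examined for a library far from the other 3, by the gap to its nearest neighbour as a share of the group's range, against Dixon's 95% critical value. Of 190 combinations of model and group 16 exceeded it. The share was taken on FPKM without a log, while the critical value assumes normal values. Some of the models also overlap each other, so a chance rate of 1 in 20 need not hold here. In ERM there were 3, all with library C highest, at 0.925 for si:ch211-226h7.3, 0.852 for si:ch211-226h7.5 and 0.842 for mpeg1.2. Library C of citalopram 1000 µg/L accounted for 6. It was highest for krt93 (0.91), the unannotated contig KN150521.1 model (0.91), mpeg1.2 (0.871), sult5a1 (0.865) and si:ch211-226h7.5 (0.859), and lowest for myhz1.3 (0.908). Library B of the same group was highest for hsp70l (0.907), at 8.87 FPKM against 2 to 2.64, and for tgm1l3 (0.869). In citalopram 10 µg/L library A was highest for an unannotated model of chromosome 16 (0.91) and rgs2 (0.84), library B for the spanning chromosome 12 model (0.877) and library C for psmb9a (0.859). In ifosfamide 100 µg/L library B was highest for mpeg1.2 (0.91).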

How the results depend on the processing

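The count of models past the threshold (5, all lower in ERM) was 3 with a pseudocount of 5, 2 (both lower) among protein-coding models only, 8 (1 higher) with quantile normalization and 206 (99 higher, 107 lower) with array weights, estimated gene by gene. With no filter it was 3 (1 higher, 2 lower). Requiring 1 FPKM in at least 4 libraries gave 1 higher, beside lower models that included si:ch211-226h7.5 and the contig KN150521.1 model. It was 2 without the citalopram 10 µg/L group, 8 (2 higher) without citalopram 1000 µg/L, 3 without ifosfamide 1 µg/L and 2 without ifosfamide 100 µg/L. Without libraries C and D of citalopram 1000 µg/L, a setting chosen after seeing the data, it was 2. With single libraries left out it ran from 0 to 9, with 0 to 1 higher and 0 to 8 lower. With the replicate letter as a block 0 passed. The labels state no link between letters of different groups, and whether there was one was not settled. Letter E occurs only in ERM, so that block takes up that library. Among the drug groups 0 passed, and 2 did with no filter, 1584 with array weights and 3 without libraries C and D (these settings too were chosen after seeing the data), with 0 to 210 when single libraries were left out. Ranking by reads kept 18 of the 30 most abundant models. The cause of these moves was not tested.

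Genes with differences near 0 changed sign. That of egr1 was 0.0001 with a pseudocount of 0.1, 0.036 without citalopram 10 µg/L and 0.0486 without ifosfamide 100 µg/L. For cdkn1a it was -0.0272 scaled to summed FPKM, -0.0161 scaled to reads, -0.0281 with array weights, -0.0487 without ifosfamide 1 µg/L and -0.0282 without libraries C and D. For nr1d1 the same 2 scalings gave -0.0382 and -0.0292, the block -0.0517, and leaving out citalopram 10 and ifosfamide 1 µg/L -0.0101 and -0.0207. Array weights gave -0.0264 for slc6a4a, 0.0217 for xbp1 and 0.0333 for mao, and leaving out citalopram 1000 µg/L gave -0.0187, 0.0418 and 0.0209. For mao the block gave 0.0244 and leaving out libraries C and D 0.031. The block gave -0.3697 for fosab, and quantile normalization -0.0329 for mt-nd4. Without ifosfamide 1 µg/L the values were -0.0086 for fosab, -0.0282 for hsp90aa1.2, 0.0093 for nr3c1 and 0.0285 for per2, and without ifosfamide 100 µg/L 0.009 for per2. With single libraries left out the ranges were -0.0945 to 0.1467 (cdkn1a), -0.2229 to 0.0815 (egr1), -0.2997 to 0.3467 (fosab), -0.0535 to 0.0086 (mao), -0.1053 to 0.1707 (nr1d1), -0.0846 to 0.0387 (per2) and -0.1566 to 0.0023 (xbp1).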
